A study of Arabidopsis thaliana with 6 samples.

Results

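Histone H2A.W, histone H2A.Z and linker histone H1 are chromatin proteins that differ between condensed and accessible DNA in plants. Their 9 genes in Arabidopsis thaliana were followed here across the cell types of the root meristem. The genes were chosen by name from the histone families, not from their levels: HTA6, HTA7 and HTA12 for H2A.W, HTA8, HTA9 and HTA11 for H2A.Z, and H1.1, H1.2 and H1.3 for the linker histones. All 9 were present among the 33554 loci listed in each library, and all 9 belonged to the 19671 loci measured at 1 FPKM or more in at least 1 library. FPKM scales sequenced fragments to the length of the transcript and to the mapped fragments of the library, so levels can be compared between genes.

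H2A.W is a plant variant of histone H2A that sits in the nucleosomes of heterochromatin, over transposons and around centromeres, where its long C-terminal tail promotes compaction of the chromatin fibre. H2A.Z is found in most eukaryotes, is placed by the SWR1 remodelling complex near the starts of genes and over genes that respond to the environment, and is largely kept out of DNA that carries methylation. Linker histone H1 binds the DNA between nucleosomes, is most abundant in heterochromatin, and limits the access of DNA methyltransferases there.

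RNA was sequenced from cells sorted by green fluorescence from roots of seedlings grown for 6 days, and the series description names the root meristem as the source. Epidermis was sorted from ProWER:GFP, cortex from ProAT1G09750:GFP, endodermis from ProSCR:GFP, stele, the central vascular cylinder, from ProWOL:GFP, and columella root cap from the enhancer trap line PET111. All groups thus carry a fluorescent reporter, no untreated or unsorted sample is among the libraries, and each population is defined by where the promoter or trapped enhancer is active. Endodermis had 2 libraries, from lines 1 and 2 of its reporter, and each of the other 4 cell types had 1 library.

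Summed FPKM lay between 576322 and 642028 per library, and 15999 to 17096 loci reached 1 FPKM. The files carry no read numbers, and the depth is unknown, so a value has no counting interval. Summed by list, the defining markers followed the labels: the summed markers of epidermis summed to 336 FPKM in their own library against 22.1 or less in the others, those of cortex at 45.4 against at most 10.8, those of stele at 314 against at most 60.0, and those of columella root cap at 405 against at most 91.9, the last in epidermis. The cortex sum was carried by AED3 (AT1G09750), the gene of the reporter's promoter, at 43.0 FPKM, whereas CO2, the other cortex marker, stood at 2.39 in cortex and at 6.97 in endodermis line 2. The stele sum was carried by TMO5 at 141 FPKM and SHR at 98.8. WOL, the gene of the stele reporter's promoter, stood at 46.0 in stele, 30.7 in epidermis and 24.6 in endodermis line 1. BRN1, a columella root cap marker, stood at 66.8 in columella root cap and 47.8 in epidermis. The 4 endodermis markers summed to 3313 FPKM in line 1 and 349 in line 2, against at most 49.1 elsewhere. The endodermis lines differed among these markers. CASP1, a scaffold protein of the Casparian strip, stood at 2045 FPKM in line 1 and 85.2 in line 2, whereas SCR, a transcription factor of the ground tissue and the reporter's own promoter, stood at 59.7 and 147.

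The H2A.W genes were represented by a pair of abundant genes, HTA6 and HTA7, and a scarce gene, HTA12. The end of each coding sequence is shown because it encodes the tail that sets H2A.W apart. The capitals mark the codons of the lysine-serine-proline-lysine-lysine motif, which was found in all 3 H2A.W genes and in 0 of the 3 H2A.Z genes. The sequences are the last 75 coding bases, stop codon included, of the RefSeq assembly TAIR10.1, and HTA9 is given beside them as an H2A.Z gene.
HTA6, chr5:24115605-24115679, minus strand: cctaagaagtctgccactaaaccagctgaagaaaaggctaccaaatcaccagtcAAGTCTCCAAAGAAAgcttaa
HTA7, chr5:9792807-9792881, minus strand: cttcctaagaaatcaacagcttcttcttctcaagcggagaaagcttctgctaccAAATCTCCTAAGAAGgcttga
HTA12, chr5:576382-576456, plus strand: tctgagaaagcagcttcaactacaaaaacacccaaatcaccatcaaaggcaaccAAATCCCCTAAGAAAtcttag
HTA9, chr1:19646147-19646221, plus strand: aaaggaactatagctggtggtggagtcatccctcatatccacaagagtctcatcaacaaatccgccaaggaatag

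HTA6 (AT5G59870, chromosome 5, 24115354 to 24116220, 2 exons) was the most abundant H2A.W gene in cortex, endodermis line 2 and stele. It stood at 91.7 FPKM in epidermis, 253 in cortex, 97.9 in endodermis line 1, 281 in endodermis line 2, 284 in stele and 47.3 in columella root cap. The libraries formed a high set of cortex, endodermis line 2 and stele, and a low set of the other 3. The highest level was 5.99-fold above the lowest. HTA7 (AT5G27670, chromosome 5, 9792509 to 9793560, 2 exons) spanned a narrower range of 2.61-fold. Its levels were 126 FPKM in epidermis, 142 in cortex, 104 in endodermis line 1, 191 in endodermis line 2, 187 in stele and 73.1 in columella root cap. The same 3 libraries were highest and columella root cap was again lowest, but epidermis stood closer to cortex than for HTA6. Within each library HTA6 was therefore 1.79 times HTA7 in cortex, 1.47 times in endodermis line 2 and 1.52 times in stele, and below HTA7 in epidermis (0.728), endodermis line 1 (0.942) and columella root cap (0.647).

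HTA12 (AT5G02560, chromosome 5, 575225 to 577216, 2 exons) ran the other way. It stood at 6.51 FPKM in epidermis, 2.79 in cortex, 11.1 in endodermis line 1, 6.60 in endodermis line 2, 1.296 in stele and 7.77 in columella root cap. Stele, the highest library for HTA6, was the lowest for HTA12, and HTA12 was the only gene of the 9 with a higher level in endodermis line 1 than in line 2. Its share of the summed H2A.W level ran from 0.275% in stele to 6.06% in columella root cap. The level of HTA12 is uncertain, because 522 bases of its exons, 34.7%, overlap HTB10 (AT5G02570), a histone H2B gene on the opposite strand, and no source used here gives the strandedness. HTB10 itself stood between 0.407 FPKM in stele and 2.08 in epidermis.

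**Figure D1:**
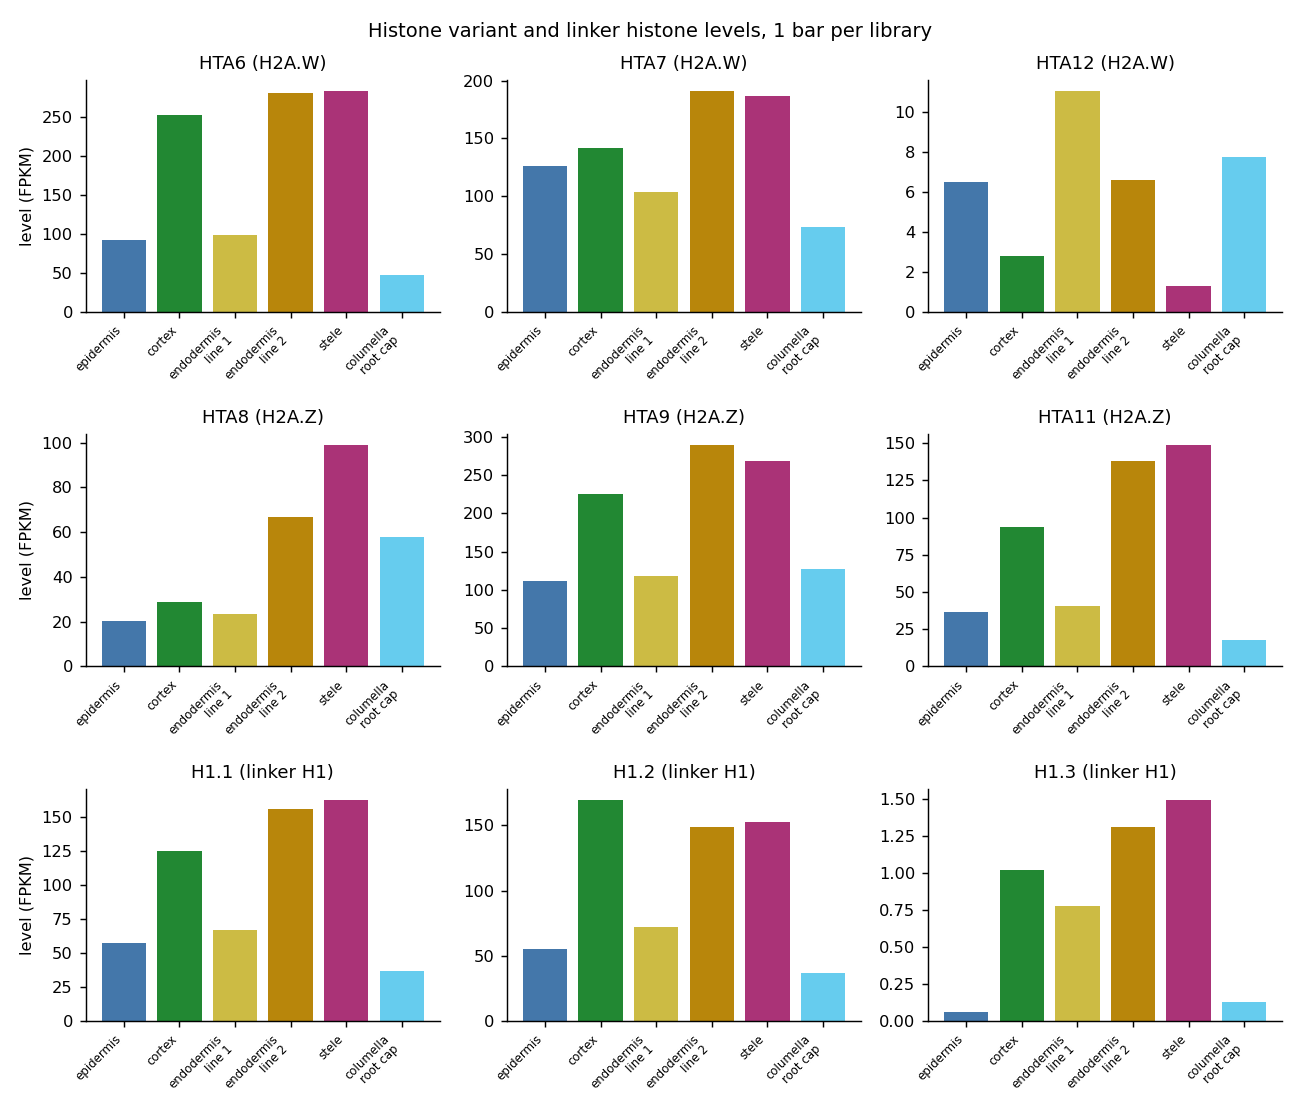
Level in FPKM (vertical axes, each from 0 with its own scale) of the 9 histone genes, with 1 bar for each of the 6 libraries. Cortex, endodermis line 2 and stele are the 3 highest libraries for 6 of the 8 genes that reached 1 FPKM in every library, while HTA12 and HTA8 differ, with HTA12 at 1.296 FPKM in stele and HTA8 at 58.0 in columella root cap.

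Among the H2A.Z genes, HTA9 was the most abundant in every library, and HTA8 and HTA11 had unlike profiles although their coding sequences were the most alike of any pair within a family, at 81.8% identical aligned bases. HTA9 (AT1G52740, chromosome 1, 19645236 to 19646485, 2 exons) stood at 112 FPKM in epidermis, 225 in cortex, 118 in endodermis line 1, 289 in endodermis line 2, 269 in stele and 127 in columella root cap. Columella root cap, epidermis and endodermis line 1 formed its low set, and its whole range was 2.58-fold.

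HTA11 (AT3G54560, chromosome 3, 20196140 to 20197726, 3 exons) ranged 8.35-fold, close to the 8.54-fold range of HTA12. It was listed at 36.2 FPKM in epidermis, 93.8 in cortex, 40.2 in endodermis line 1, 138 in endodermis line 2, 149 in stele and 17.8 in columella root cap. Stele and endodermis line 2 were highest, and columella root cap lay below every other library. HTA8 (AT2G38810, chromosome 2, 16219220 to 16220928, 3 exons) stood at 20.3 FPKM in epidermis, 28.6 in cortex, 23.6 in endodermis line 1, 66.7 in endodermis line 2, 98.9 in stele and 58.0 in columella root cap. Here columella root cap came next after stele and endodermis line 2, and cortex belonged to the low set.

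HTA8 and HTA11 changed places in columella root cap, and the pair was chosen after its values were seen. HTA8 stood at 0.560 of the HTA11 level in epidermis, 0.305 in cortex, 0.587 in endodermis line 1, 0.483 in endodermis line 2, 0.665 in stele and 3.26 in columella root cap. Columella root cap was thus the only library in which HTA8 exceeded HTA11, and it lay outside the range of the other 5. In shares of the summed H2A.Z level, HTA8 made up 8.23% to 19.1% in those 5 libraries and 28.6% in columella root cap, while HTA11 made up 21.5% to 28.8% and 8.78%. HTA9 kept between 52.1% in stele and 66.5% in epidermis.

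The linker histone genes were H1.1 and H1.2, the main forms, and H1.3, a shorter form known in Arabidopsis to be induced by drought, abscisic acid and low light. The ends of the coding sequences are printed because they differ in a short motif found in H1 tails. Capitals mark the codons of serine or threonine, proline, any residue, and lysine or arginine. This motif occurred 3 times in the whole coding sequence of H1.1, 3 times in that of H1.2 and 0 times in that of H1.3, and only matches within the printed 75 bases of TAIR10.1 are marked.
H1.1, chr1:2076687-2076761, minus strand: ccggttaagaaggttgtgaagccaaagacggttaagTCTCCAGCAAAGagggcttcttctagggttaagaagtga
H1.2, chr2:13046193-13046267, plus strand: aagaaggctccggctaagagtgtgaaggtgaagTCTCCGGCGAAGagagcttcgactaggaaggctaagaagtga
H1.3, chr2:7846596-7846670, plus strand: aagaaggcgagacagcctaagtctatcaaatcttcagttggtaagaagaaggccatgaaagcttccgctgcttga
The coding sequence had 825 bases in H1.1, 822 in H1.2 and 504 in H1.3. Aligned bases were identical at 64.9% between H1.1 and H1.2, and at 41.5% and 39.8% between H1.3 and each of them.

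H1.1 (AT1G06760, chromosome 1, 2076504 to 2077767, 2 exons) was at 57.1 FPKM in epidermis, 125 in cortex, 67.2 in endodermis line 1, 156 in endodermis line 2, 163 in stele and 36.5 in columella root cap. H1.2 (AT2G30620, chromosome 2, 13044931 to 13046682, 2 exons) was at 54.9 FPKM in epidermis, 169.8 in cortex, 72.1 in endodermis line 1, 149 in endodermis line 2, 153 in stele and 36.3 in columella root cap. Both genes had the same high and low sets as HTA6, with cortex the highest library for H1.2 alone. Their ratio stayed close to 1, from 0.738 in cortex to 1.07 in stele, the narrowest range of the 3 gene pairs compared. The level of H1.1, and with it this ratio and the H1 sums, is uncertain in the way described for HTA12. Of the H1.1 exons, 484 bases, 41.8%, overlap a noncoding gene on the opposite strand, which is not among the listed loci.

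H1.3 (AT2G18050, chromosome 2, 7845923 to 7847031, 2 exons) was scarce everywhere. It stood at 0.0610 FPKM in epidermis, 1.02 in cortex, 0.775 in endodermis line 1, 1.31 in endodermis line 2, 1.49 in stele and 0.125 in columella root cap. It reached 1 FPKM only in cortex, endodermis line 2 and stele, so it counted as measured through its highest libraries alone. Counts of profiles below leave it out. It could not be called by the rule of size, which asks for 5 FPKM. Its share of the summed H1 level was between 0.0545% in epidermis and 0.553% in endodermis line 1. Genes of the abscisic acid and drought response, described further down, summed to 3961 FPKM in columella root cap and 1651 in epidermis. These libraries had the lowest H1.3 levels. The same genes summed to 2679.5 in endodermis line 1, against 392 in cortex, 202 in endodermis line 2 and 450.3 in stele. Much of the sums came from ERD10 and COR47, at 1486 and 1903 FPKM in columella root cap and 695 and 1672 in endodermis line 1.

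None of the 9 genes was called specific to a cell type. Differences between libraries were read on the log2(FPKM + 1) scale. A gene was called enriched or depleted in a cell type by a rule of size, a level at least 1 log2 unit beyond all libraries from other cell types and 5 FPKM or more on the higher side, and both endodermis lines had to pass. By this rule 0 of the 9 genes were called in any cell type, where 16.6% of the 19671 measured genes were. Depletion in columella root cap, which applied to 1.11% of measured genes, was missed narrowly by HTA11, whose level there lay 0.98 log2 units below the next library, and by HTA6 at 0.94, while H1.1, H1.2 and HTA7 were 0.63, 0.58 and 0.50 below. With FPKM divided by size factors the rule called HTA6, HTA11 and H1.1 depleted in columella root cap, 3 of 9, where 1.51% of measured genes were.

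The second test was limma with Benjamini-Hochberg adjustment over all measured genes, each cell type against the average of the remaining 4. It called 0 of the 9 genes at an adjusted p under 0.05 in any cell type, where 14.9% of measured genes were called in at least 1 cell type and 5.06% in columella root cap. At an unadjusted p under 0.05 it held 1 of the 9 genes, HTA11 in columella root cap, where 13% of measured genes were. The endodermis pair gives the fit its 1 residual degree of freedom, and limma estimated infinite prior degrees of freedom. Its SE and p-values thus rest wholly on a spread shared by genes of like level, not on each gene's own pair, and lone libraries are assumed to vary in the same way. For HTA11 the endodermis lines had an SD of 1.24 on the log2 scale. This was larger than the shared spread behind its SE of 0.913 in columella root cap, so that SE understates the spread of its own pair. Nothing in the labels says whether lines 1 and 2 were grown or sorted separately, and p-values then measure only the spread between these libraries, which may be technical. An exact permutation test of 1 library against the other 5 has 6 arrangements and cannot give a p below 0.167.

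In columella root cap, 6 of the 8 genes at 1 FPKM or more in every library were lower than the average of the remaining 4 cell types, against 51.9% of measured genes. By limma, HTA11 was lower by a log2 difference of -2.08 ± 0.913 (SE, adjusted p = 0.239), HTA6 by -1.92 ± 1.06 (adjusted p = 0.467), H1.2 by -1.58 ± 0.967 (adjusted p = 0.564) and H1.1 by -1.49 ± 0.961 (adjusted p = 0.601). HTA7 stood at -0.9995, H1.3 at -0.69 and HTA9 at -0.57, and HTA12 (0.81) and HTA8 (0.56) lay above it. None of these passed the limma test, and the median over all measured genes was -0.05. Columella root cap was the lowest of the 6 libraries for HTA6, HTA7, HTA11, H1.1 and H1.2, 5 of the 8, against 16.6% of measured genes. Ties for the lowest level, as among zeros, were given to another library, so this share is a minimum. Here and below, measured genes needed 1 FPKM in only 1 library, unlike the 8, so such shares are a rough comparison.

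In stele, 7 of the 8 genes were higher than the average of the remaining 4 cell types, against 52% of measured genes, and stele was the highest library for 4 of the 8, against 28.6%. HTA11 differed by 1.66 (adjusted p = 0.406 by limma), HTA8 by 1.51 (adjusted p = 0.447), HTA6 by 1.28 (adjusted p = 0.633) and H1.1 by 1.17 (adjusted p = 0.629). H1.2, HTA9, H1.3 and HTA7 followed between 0.98 and 0.68, and HTA12 stood below at -1.61 (adjusted p = 0.508). In epidermis, 7 of the 8 genes were below the average of the remaining 4, against 65.9% of measured genes, whose median there was -0.39. They ran from -1.28 for HTA8 to -0.03 for HTA7, whose sign turned when FPKM were scaled by size factors or to TPM or when endodermis line 2 was left out, and HTA12 was above at 0.53. In cortex, H1.2 and HTA6 had the largest differences, at 1.17 and 1.07. The comparisons share libraries, since each cell type is part of the average for the others. As the RNA came from sorted pools, fewer expressing cells and less RNA of the gene per cell cannot be told apart.

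**Figure D2:**
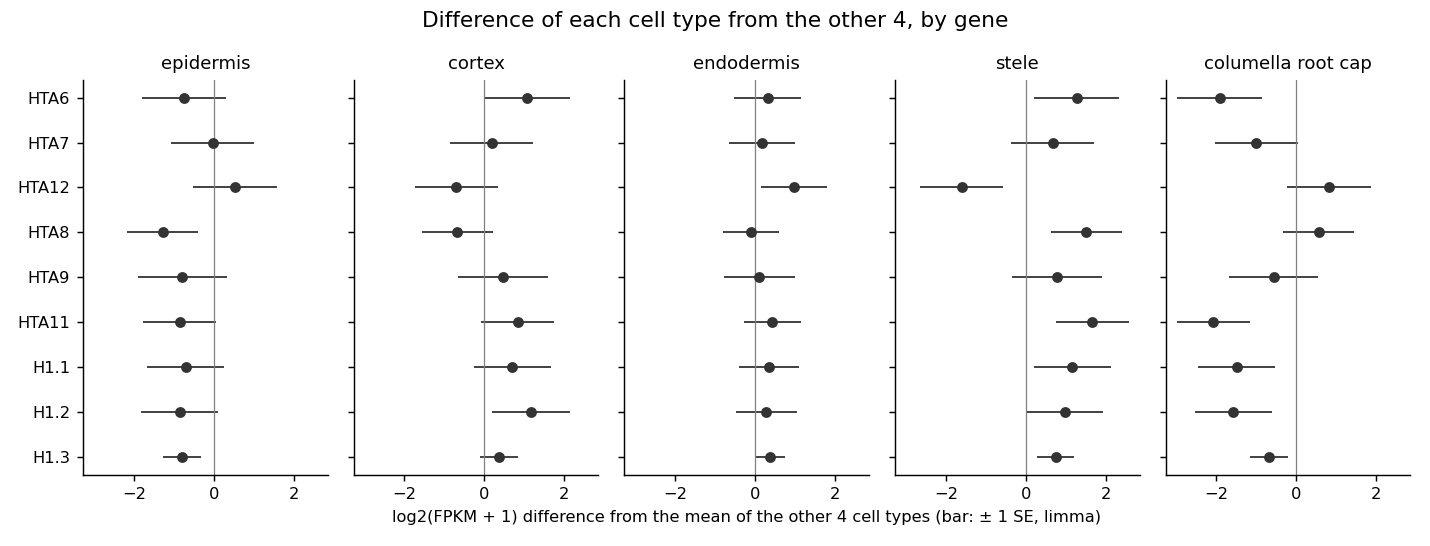
Difference of each cell type from the mean of the other 4 on the log2(FPKM + 1) scale (horizontal axis) for the 9 genes (vertical axis), with points at the limma estimate and bars of ± 1 SE. HTA11 and HTA6 lie lowest in columella root cap, at -2.08 and -1.92, HTA12 lies below 0 in stele while the other 8 lie above, and none passed the adjusted threshold.

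The spread within endodermis was large for these genes. As mean ± SD of the 2 lines, HTA6 stood at 189 ± 129 FPKM, HTA7 at 148 ± 61.7, HTA8 at 45.1 ± 30.5, HTA9 at 204 ± 121, HTA11 at 89.1 ± 69.2, H1.1 at 112 ± 63.1 and H1.2 at 110.5 ± 54.3. Line 2 was above line 1 by 3.44-fold for HTA11, 2.87-fold for HTA6, 2.83-fold for HTA8, 2.45-fold for HTA9, 2.33-fold for H1.1 and 2.07-fold for H1.2. These 6 of the 8 genes were at least 1 log2 unit higher in line 2, as were 17.4% of measured genes. Cortex, endodermis line 2 and stele were the 3 highest libraries for 6 of the 8 genes, all but HTA12 and HTA8, against 25.8% of measured genes.

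Measured against that gap, few steps between cell types stood out. Of 10 pairs of cell types, the difference exceeded the gap between the endodermis lines for 7 pairs in HTA12 and 5 in H1.2. It did so for 4 each in HTA6, HTA11 and H1.1, 3 each in HTA7 and HTA8 and 0 in HTA9. HTA6, HTA7, HTA11 and H1.1 shared the order stele, cortex, endodermis, epidermis and columella root cap, in which no neighbours differed beyond the gap. For H1.2 the order began with cortex and then stele, and for HTA9 epidermis ranked last after columella root cap, again with no step beyond the gap. HTA8 ran from stele through columella root cap, endodermis and cortex to epidermis, also without such a step. In HTA12, where endodermis and columella root cap ranked first, epidermis exceeded cortex and cortex exceeded stele beyond the gap. For H1.3, 6 pairs exceeded a gap of 0.38 log2 units, among neighbours cortex over columella root cap. H1.3 is left out of the counts above, because its levels, at most 1.49 FPKM, lie near the floor.

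Summed by family, H2A.W and H1 were lowest in columella root cap and H2A.Z was not. The H2A.W genes summed to 224 FPKM in epidermis, 397 in cortex, 213 in endodermis line 1, 479 in endodermis line 2, 472 in stele and 128 in columella root cap. The H2A.Z genes summed to 168 FPKM in epidermis, 347 in cortex, 182 in endodermis line 1, 494 in endodermis line 2, 517 in stele and 203 in columella root cap. Linker H1 summed to 112 FPKM in epidermis, 296 in cortex, 140.1 in endodermis line 1, 307 in endodermis line 2, 317 in stele and 73.0 in columella root cap. Columella root cap lay below the 5 other libraries for H2A.W and H1, and above epidermis and endodermis line 1 for H2A.Z.

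The H2A.W sum therefore stood at 1.33 times the H2A.Z sum in epidermis, 1.14 in cortex, 1.17 in endodermis line 1, 0.969 in endodermis line 2, 0.913 in stele and 0.633 in columella root cap. By these sums, heterochromatic H2A exceeded H2A.Z in epidermis, cortex and endodermis line 1 and was below it in the other 3 libraries. Columella root cap was lower than the average of the remaining 4 cell types by a log2 difference of -0.80, where the endodermis lines had an SD of 0.193. The H1 sum stood at 0.665 of the H2A.Z sum in epidermis, 0.852 in cortex, 0.770 in endodermis line 1, 0.621 in endodermis line 2, 0.614 in stele and 0.360 in columella root cap, a log2 difference of -0.96 for the last beside an endodermis SD of 0.220. Both ratios were described without a test. When each family was taken as the mean of its genes' log2 values, which gives scarce HTA12 and H1.3 the same weight as the abundant genes, the H2A.W difference was -0.0081 and the H1 difference -0.56. On that scale H2A.W was also below H2A.Z in cortex (-0.74) and level with it in epidermis (-0.0044), and stele was lowest, at -1.68 against -0.72 in columella root cap.

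**Figure D3:**
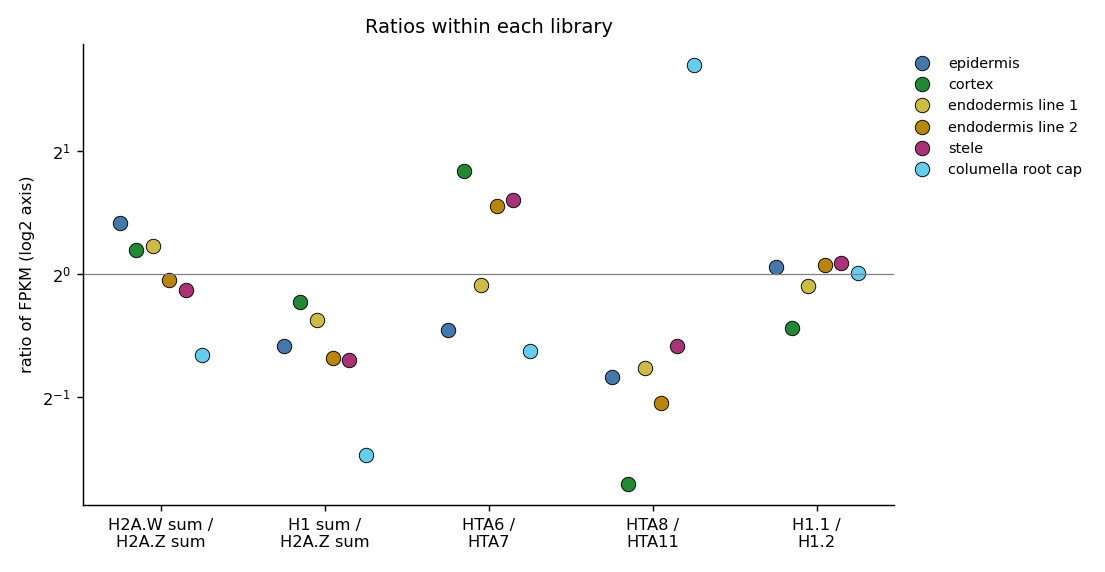
Ratios of FPKM within each library (vertical axis, log2 scale) for H2A.W to H2A.Z, H1 to H2A.Z and the gene pairs HTA6 to HTA7, HTA8 to HTA11 and H1.1 to H1.2, with 1 point per library and a line at 1. Columella root cap is lowest for the first 2 ratios, at 0.633 and 0.360, and highest for HTA8 to HTA11, at 3.26.

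Taken over all 13 H2A genes, which add canonical H2A and H2A.X, the summed level was 741 FPKM in epidermis, 1361 in cortex, 777.9 in endodermis line 1, 1622 in endodermis line 2, 1667 in stele and 540.2 in columella root cap. The share of H2A.W was steady between 27.4% and 30.3% in 5 libraries and 23.7% in columella root cap. The share of H2A.Z was 22.7% in epidermis, 25.5% in cortex, 23.4% in endodermis line 1, 30.4% in endodermis line 2, 31.0% in stele and 37.5% in columella root cap, the highest of the 6. Canonical H2A, the form made mainly for replicating DNA, made up 35.7% in epidermis, 37.0% in endodermis line 1, between 29.0% and 32.2% in the next 3 and 22.8% in columella root cap. H1 relative to all H2A was lowest in columella root cap, at 0.135, and highest in cortex, at 0.218.

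**Figure D4:**
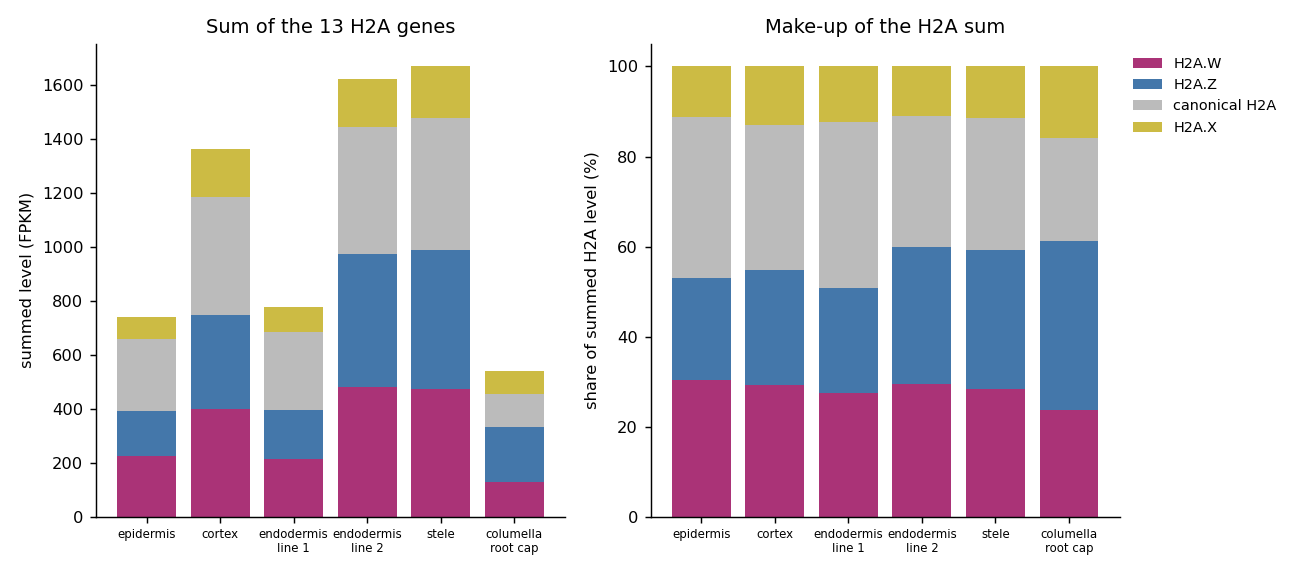
Summed FPKM of the 13 H2A genes in each of the 6 libraries (left) and its make-up in percent (right), by H2A.W, H2A.Z, canonical H2A and H2A.X. The summed level is lowest in columella root cap, at 540.2 FPKM, where H2A.Z has its highest share, 37.5%, and canonical H2A its lowest, 22.8%.

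The other core histones showed where the 9 genes stood among their kind. In columella root cap the median log2 difference was -1.69 for the 6 measured genes among the 7 of canonical H2A, H2A.X and HTA4, with 5 lower and HTA10 and HTA13 depleted. The lowest was HTA2 (-1.79) and the highest HTA5, an H2A.X gene, at 0.00. It was -1.19 for the 10 measured of 11 H2B genes, all lower, with HTB11 depleted at -1.79 and HTB10 highest at -0.05. The 5 H3.1 genes, which supply replicating DNA, had a median of -1.96, from -1.47 for HTR2 to -2.13 for HTR3, and the 3 genes of the replacement form H3.3 had -0.45, from -0.32 for HTR8 to -0.75 for HTR4. The corresponding medians were -0.9995 for H2A.W, -0.57 for H2A.Z and -1.49 for H1. HTB6, an H2B gene, was the only histone gene on these lists enriched in a cell type, at 122 FPKM in epidermis against at most 46.2 elsewhere, where 4.46% of measured genes were enriched.

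Genes that place or remove H2A.Z, in the SWR1 and INO80 complexes and among the NRP chaperones, were split in columella root cap. All 14 were measured, their median there was -0.05 with 6 higher and 8 lower, and none was called by either rule. MBD9, a methyl-binding domain protein that associates with SWR1, was highest at 0.90 and NRP2, a histone chaperone, lowest at -1.36. In stele all 14 were above the average of the remaining 4 cell types, with a median of 1.06 against 0.06 over all measured genes, and in epidermis all 14 were below, with a median of -0.97 against -0.39. PIE1, the ATPase of SWR1, stood at 2.46 FPKM in epidermis, 6.00 in cortex, 2.93 in endodermis line 1, 7.14 in endodermis line 2, 12.04 in stele and 6.68 in columella root cap. Columella root cap thus ranked between cortex and endodermis line 2.

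The 11 genes of heterochromatin, which methylate H3K9, H3K27 or DNA or act where H2A.W is found, had a median of -0.23 in columella root cap, with 4 higher and 7 lower. MOM1, a silencing factor, was highest at 0.98, and CMT3, a DNA methyltransferase of CHG sites, lowest at -1.85. DDM1, the remodeller that deposits H2A.W in Arabidopsis, stood at 4.33 FPKM in epidermis, 7.51 in cortex, 5.66 in endodermis line 1, 17.9 in endodermis line 2, 28.3 in stele and 8.46 in columella root cap. It was highest in stele, as HTA6 was, but columella root cap was not its lowest library. The 8 other proteins with the globular domain of H1 were split in columella root cap, 4 higher and 4 lower with a median of 0.13, from HMGA at -1.16 to TRB2 and TRB5, telomere repeat binding factors, at 0.67. None of these 19 genes was called in any cell type by either rule.

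In their mean level, replication genes had the same 3 highest libraries as HTA6, HTA7, HTA9, HTA11, H1.1 and H1.2. The part of replication genes in these differences was not tested. The 12 genes of S phase had a mean log2(FPKM + 1) of 3.26 in epidermis, 4.54 in cortex, 3.39 in endodermis line 1, 4.96 in endodermis line 2, 5.35 in stele and 3.60 in columella root cap. The lowest library was epidermis, and columella root cap stood above endodermis line 1. In columella root cap 11 of the 12 were lower, with a median of -0.79, and PCNA1, the sliding clamp of replication, was lowest at -2.01. RNR2A, a subunit of ribonucleotide reductase, was enriched there at 33.2 FPKM against at most 15.3, as were 5.44% of measured genes.

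Genes of the abscisic acid and drought response, listed because H1.3 is known for that response, had the opposite high set in their mean level. Of 13 genes, 11 were measured, and their mean log2(FPKM + 1) was 4.76 in epidermis, 3.43 in cortex, 5.11 in endodermis line 1, 2.98 in endodermis line 2, 2.96 in stele and 5.12 in columella root cap. KIN1, ERD10 and HAI1 were enriched in columella root cap, and ERD10, a dehydrin, differed most, at 1486 FPKM there against at most 695 elsewhere. ABI2, a phosphatase of abscisic acid signalling, was lowest at -0.998. H1.3 was at its 3 lower levels in epidermis, endodermis line 1 and columella root cap, each under 1 FPKM. It counted as measured only through the other libraries and lay near the floor in every library, so little can be read from this order. A link between H1.3 and the response was not tested.

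**Figure D5:**
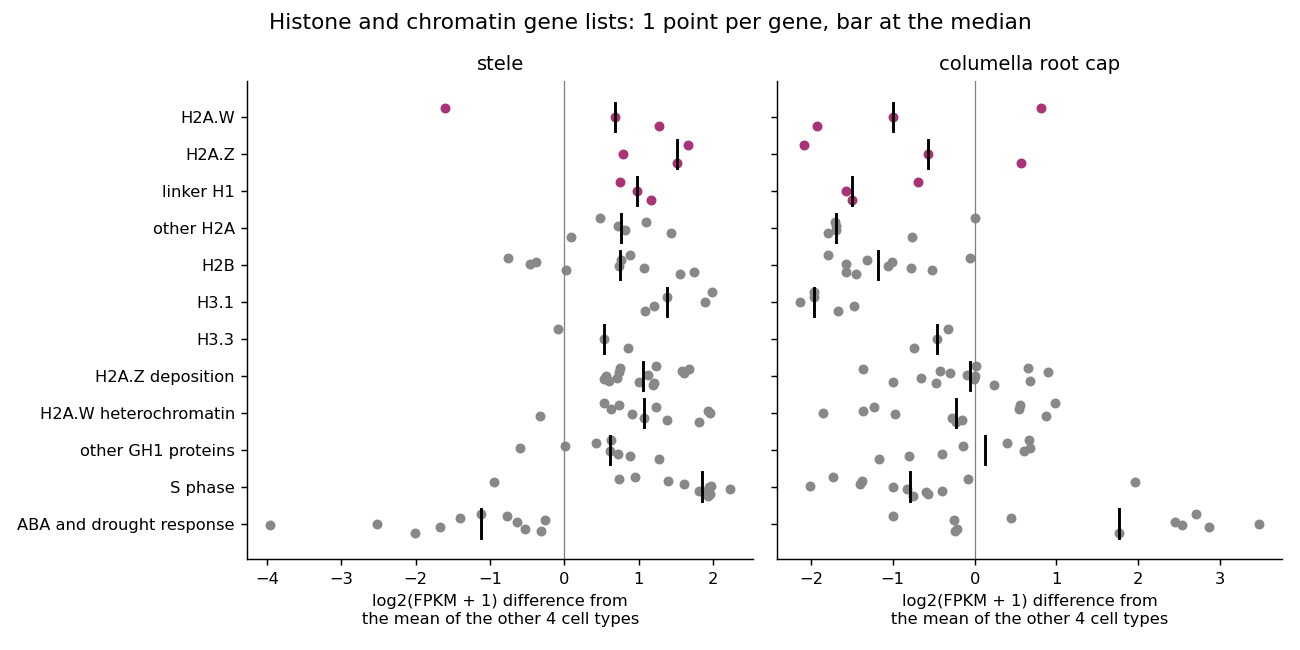
Log2(FPKM + 1) difference of stele (left) and columella root cap (right) from the average of the remaining 4 cell types (horizontal axes), with 1 point per measured gene in each list, a bar at the list's median and the 9 genes coloured. In columella root cap H3.1 has the lowest median, -1.96, H1 stands at -1.49, and abscisic acid and drought genes at 1.76.

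Profiles over the 6 libraries were compared by Pearson's r of log2(FPKM + 1), which is a description only, as the 6 points share libraries and scaling and include a single pair of replicates. H1.1 and HTA11 had r = 0.998 and H1.1 and HTA6 r = 0.994, while H1.1 and H1.2, of the same family, had r = 0.976. HTA12 had negative r with the 8 others, from -0.68 to -0.50, and HTA8 had between 0.31 and 0.68 with the 7 others. Of 14030 genes that reached 5 FPKM and had a log2 range of at least 1, 14.7% had r above 0.9 with HTA9, 10.14% with HTA11, 10.001% with H1.1, 8.43% with HTA6, 7.29% with H1.2, 6.64% with HTA8, 4.85% with HTA7, 4.81% with H1.3 and 0.563% with HTA12. The share was lowest for HTA12.

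The nearest profiles to HTA6 were those of PAF1 (r = 0.999), a proteasome subunit, of AT5G04790 and of AT4G39880, a ribosomal protein gene. Those nearest to HTA11 and H1.1 included the same gene of a ribosomal protein L11 family, AT3G53430, at r = 0.9996 and 0.998, and HTA7 lay nearest to AT2G15000 (r = 0.994) and to AT1G33120 and PGY2, both of the ribosomal protein L6 family. HTA9 was nearest to eEF-1Bb1 (r = 0.998), a translation elongation factor, HTA8 to AT5G48470 (r = 0.998) and MMH-1 (r = 0.995), a DNA repair glycosylase, and H1.2 to CINV2 (r = 0.996), a cytosolic invertase. HTA12 was nearest to RTFL12 (r = 0.990), a small peptide gene, and H1.3 to the growth regulator GRF6 (r = 0.997) and the cyclin CYCA3;4 (r = 0.996).

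The start of the genes was searched for short motifs known from plant histone and cell cycle promoters, since most of the 9 profiles were alike. In windows from 250 bases before to 50 after the gene start in TAIR10.1, on both strands, the histone octamer CGCGGATC was present in 40 of 27443 protein-coding genes, 0.146%, and in 2 of the 9, HTA6 and H1.1. The 150 bases before each of these gene starts are printed with the octamer, or its reverse complement in H1.1, in capitals.
HTA6, chr5:24116221-24116370, minus strand: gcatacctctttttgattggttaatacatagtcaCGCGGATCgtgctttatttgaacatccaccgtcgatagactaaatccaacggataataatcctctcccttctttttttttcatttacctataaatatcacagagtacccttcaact
H1.1, chr1:2077768-2077917, minus strand: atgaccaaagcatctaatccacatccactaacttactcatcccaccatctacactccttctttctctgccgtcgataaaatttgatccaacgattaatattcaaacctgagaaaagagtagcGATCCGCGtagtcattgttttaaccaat
Counted from the gene start, the octamer began at -116 in HTA6 and at -28 in H1.1. The motif CAACGG, found at 6.56% of genes, was in HTA6 and HTA12, and ACGTGNC, at 10.3%, was in H1.3. Neither the hexamer ACGTCA, at 9.19%, nor the E2F motifs TTTCCCGC, TTTGGCGC, TTTCGCGC and TTTGCCGC, together at 1.76%, were in any of the 9 windows.

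Of the genes with the octamer, 31 were measured. The 10 histone genes among them, which include HTA6, H1.1, HTA10, HTA13, HTR1, HTR2, HTR5 and HTR9, had a median log2 difference of -1.58 in columella root cap, and cortex, endodermis line 2 and stele were the 3 highest libraries for 9 of them. The other 21 genes had a median of 0.06, and 6 of them had that pattern, against 25.8% of measured genes. Histone genes without the octamer were not set apart. Among them HTR3 (-2.13), HTA2 (-1.79) and HTB11 (-1.79) were also low in columella root cap, whereas HTA5 (0.00) and HTB10 (-0.05) were not. HTA11 and H1.2, whose profiles were near those of HTA6 and H1.1, had no octamer in these windows. The part of the octamer in these profiles was not tested.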

How the data were processed

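The values analysed were the FPKM deposited by the authors, with 1 table of 33554 loci for each of 6 libraries. Per the submitters' processing notes, which give no settings, the build was TAIR10 and the tools were Cufflinks 2.0.2, Bowtie 0.12.7 and TopHat 1.3.1. Per the labels' protocols, polyA+ RNA was made into Illumina TruSeq libraries. No source used here gives the annotation, the strandedness or the handling of reads with several matches, so overlapping or similar genes may share reads. From loci under 0.5 FPKM, what 1 read adds to a locus was put at 0.986 to 1.56 times its value in endodermis line 1, highest in cortex. This is a rough guide to relative depth, and the read numbers are unknown.

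Loci were matched by identifier to RefSeq TAIR10.1 (32807 of 33554). The deposited tables hold no coordinates, and those printed are of TAIR10.1, as are the sequences. The transcript with the lowest RefSeq accession was used for each gene. No run of 50 bases of 8 of the genes occurred in another gene's protein-coding transcripts, and for HTA12 34.2% did, with HTB10. Noncoding transcripts were not part of that search. H1.1 shares 484 bases, 41.8% of its exons, with a noncoding gene of the opposite strand, not used here.

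FPKM were compared as log2(FPKM + 1), which understates differences of low genes. Genes at 1 FPKM or more in at least 1 library were measured. limma 3.58.1 (R 4.3.3; eBayes with trend) was fitted to all 6 libraries with a mean per cell type. The rule of size and limma were run on simulated data with levels raised in columella root cap. Depletion was not simulated. The genes and the 14 other lists were chosen with earlier results of these data known. The genes named beside the 9 were, for each list, those called by the rule of size and the highest and lowest in columella root cap, and, for each of the 9, up to 3 of the nearest profiles. PIE1, DDM1 and the markers CASP1, SCR, AED3, CO2, WOL, SHR, TMO5 and BRN1 were named after their values were seen, for their known roles. COR47 was likewise named after its values were seen, for its part in a sum.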

Additional observations from a re-analysis of the deposited data

How the results depend on the processing

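No member of the 3 families was called by the rule of size, and the count was also 0 with TPM, with no FPKM minimum, with averaged endodermis lines and without either line (0 to 0). It was 1 with a pseudocount of 0.1 and 1 with quantile normalization, HTA11 in both, and 3 with size factors and 3 with a 1.5-fold margin, each time HTA6, HTA11 and H1.1, all depleted in columella root cap. The limma count was 0 under all 7 alternatives, with 0 to 3 of the 9 genes at an unadjusted p under 0.05. At the minimum of 5 FPKM, H1.3, at most 1.49 FPKM, was not among the genes tested. Over all genes, limma called 995 in columella root cap, and 0 with size factors, 98 without the trend, 506 with no filter on low values, 582 at a minimum of 5 FPKM and 651 with a pseudocount of 0.1. The rule of size called 218 genes depleted and 1071 enriched there, and 656 and 1794 with the 1.5-fold margin.

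The columella root cap difference in H2A.W to H2A.Z was -0.84 to -0.77 without either endodermis line, -0.87 with HTA6 and HTA7 only and -0.0081 as a mean of log2 values. For H1 to H2A.Z it was -0.999 to -0.92, -0.96 with H1.1 and H1.2 only and -0.56 as a mean of log2 values. Of 180 single-gene differences under the 4 settings that keep all libraries, 173 moved by less than the endodermis SD and 2 changed sign, both HTA7 in epidermis. Leaving out a line cannot move a difference by that SD, and 8 of 90 then changed sign. Size factors moved the median of all genes by 0.31 in epidermis and -0.16 in stele, and quantile normalization by -0.12 in columella root cap. No paired analysis was possible because 4 of the 5 cell types have 1 library, so the groups share fewer than 2 replicate numbers. Depth is unknown, and H1.3 lies near the level where single reads matter.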
